A study of Mus musculus with 2 samples.

Results

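The stefins and cystatins described here are 8 genes of 43346 Ensembl genes in the deposited tables of newborn mouse spleen: the stefin A genes Stfa1, BC100530, Stfa2, Stfa2l1, Stfa3 and BC117090, the stefin B gene Cstb and the cystatin C gene Cst3. They were chosen by symbol, with GENCODE mouse gene names matched to the Ensembl identifiers, and all 8 were found in both gene tables. The rule itself uses symbols and no measured value, although the list was drawn up with earlier results of these data known. The libraries form 1 group, the spleen of B6NCrl mice (a C57BL/6N line) on the day of birth (day 0), with n = 2. Each library holds the total RNA of 1 spleen, and replicate 1 (pup 2) and replicate 2 (pup 1) came from the same pregnancy. No treatment or mutation is given, the sex of the pups was not collected, and no contrast between conditions exists. RNA longer than 200 nt was extracted with a mirVana kit and 10 ng entered each library together with spike-ins. Library totals, in estimated counts, were 33122187 for replicate 1 and 32162543 for replicate 2.

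Cystatins are inhibitors that block the active site of papain-like cysteine proteases, the lysosomal cathepsins among them. Stefins act inside the cell and carry no signal peptide, while cystatin C is secreted into body fluids. In mouse the stefin A gene has been copied repeatedly into a cluster on chromosome 16, and several copies are known as abundant transcripts of neutrophils, the granule-bearing phagocytes that a newborn spleen produces along with red cells. A glutamine-any-valine-any-glycine motif in the middle of these proteins forms a loop that enters the protease's active site.

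The coding sequence around that loop is printed first because it shows how alike the copies are, and the likeness bears on how well reads could be told apart. Each line holds 75 nt of coding sequence from the GENCODE M21 transcripts, 5′ to 3′, with the 5 codons of the motif in capitals.
Stfa1: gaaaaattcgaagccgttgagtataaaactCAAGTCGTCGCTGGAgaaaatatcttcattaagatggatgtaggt
BC100530: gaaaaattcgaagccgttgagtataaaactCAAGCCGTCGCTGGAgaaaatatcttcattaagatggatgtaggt
BC117090: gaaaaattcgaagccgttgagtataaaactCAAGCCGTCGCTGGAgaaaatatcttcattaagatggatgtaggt
Stfa2: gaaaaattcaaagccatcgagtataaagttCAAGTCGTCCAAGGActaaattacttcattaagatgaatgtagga
Stfa2l1: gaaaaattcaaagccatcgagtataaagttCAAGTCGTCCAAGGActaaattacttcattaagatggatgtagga
Stfa3: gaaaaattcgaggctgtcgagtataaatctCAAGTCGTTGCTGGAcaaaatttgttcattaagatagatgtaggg
Cstb: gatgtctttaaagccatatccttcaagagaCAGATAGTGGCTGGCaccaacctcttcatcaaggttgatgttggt
Cst3: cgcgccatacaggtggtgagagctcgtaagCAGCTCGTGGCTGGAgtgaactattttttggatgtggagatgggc
The stretch was the same in BC100530 and BC117090. Stfa1 differed from both by T140C, counted from the A of the start codon of Stfa1, a base inside the second codon of the motif. Stfa2 and Stfa2l1 differed there by A190G, outside the motif.

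Over the whole coding sequence the 6 stefin A members fell into groups of close copies. Stfa1 and BC100530 had 97.9% of 291 nt identical, with 6 mismatches: T9C, T53A, A61G, T140C, T269A and A276T, Stfa1 first. BC117090 had 11 mismatches to BC100530 (96.2% of bases aligned without gaps) and 16 to Stfa1 (94.4%). Stfa2 and Stfa2l1 had 96.4% of 309 nt identical, with 11 mismatches. Stfa3 stood apart from every other stefin A member, and its identity to Stfa1 was 84.5% and to Stfa2 80.9%. The first 120 nt of the coding sequences of the pairs of close copies show where many of the differences lie, with the bases that differ in capitals in the second sequence of each pair.
Stfa1: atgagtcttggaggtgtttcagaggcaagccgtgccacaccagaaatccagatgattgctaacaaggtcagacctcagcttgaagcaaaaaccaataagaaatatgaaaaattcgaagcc
BC100530: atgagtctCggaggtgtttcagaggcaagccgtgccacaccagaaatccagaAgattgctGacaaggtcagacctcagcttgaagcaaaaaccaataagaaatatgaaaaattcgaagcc
Stfa2: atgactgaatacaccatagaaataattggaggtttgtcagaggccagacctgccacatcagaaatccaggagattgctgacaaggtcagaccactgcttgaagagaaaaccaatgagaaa
Stfa2l1: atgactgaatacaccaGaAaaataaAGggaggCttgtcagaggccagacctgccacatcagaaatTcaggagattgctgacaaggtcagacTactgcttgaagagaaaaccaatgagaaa
Of the 6 differences between Stfa1 and BC100530, 3 lie in this stretch, and of the 11 between Stfa2 and Stfa2l1, 7 do. Each difference between copies is a position by which a read over it could be assigned.

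**Figure D1:**
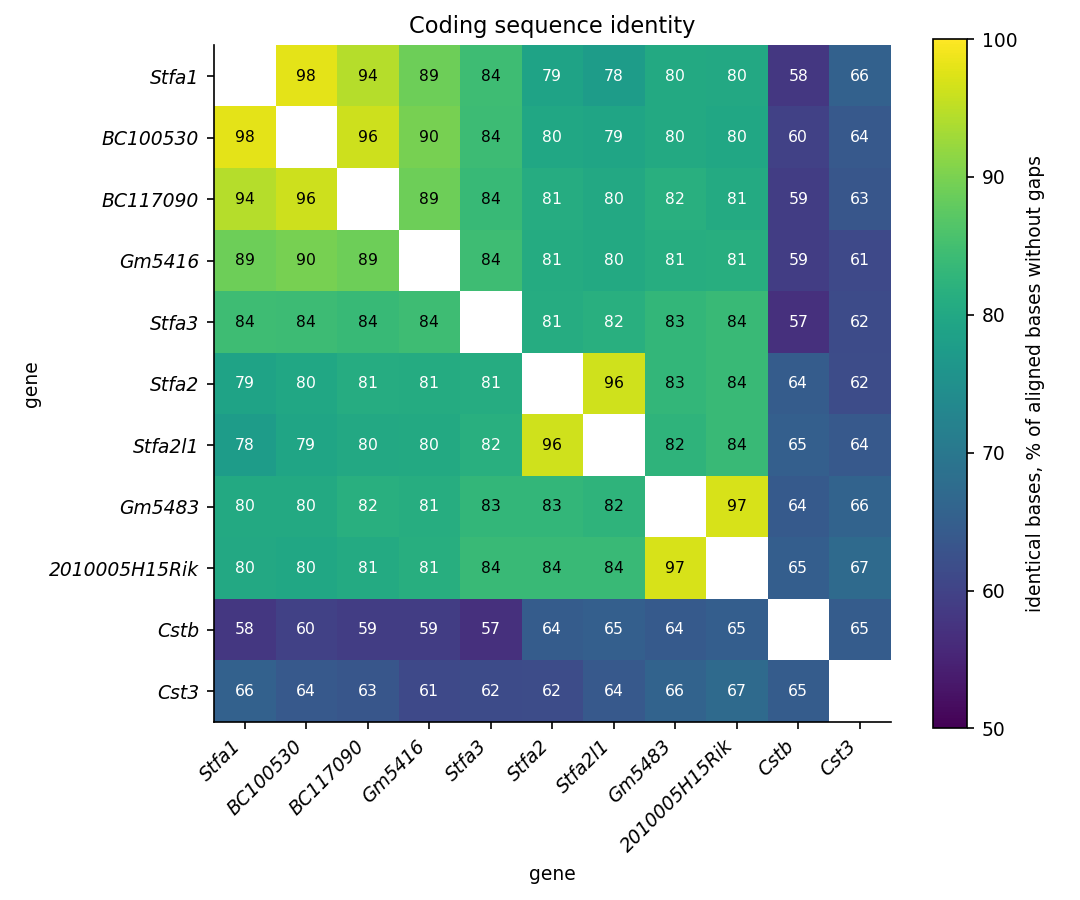
Identical bases between coding sequences, in percent of the bases aligned without gaps, for the 8 members and 3 other stefin A genes of the cluster. Leaving out gaps raises the values of Cst3 most. Stfa1 and Cst3 are 65.5% identical on this scale but 41.3% over the whole alignment, and Stfa1 and Cstb 58.1% and 57.5%. Bright squares mark the close copies Stfa1, BC100530 and BC117090, then Stfa2 with Stfa2l1, and Gm5483 with 2010005H15Rik, while Cstb and Cst3 are the darkest rows.

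Levels are given in TPM, a transcript abundance normalized for transcript length and library total, with the mean ± SD over the 2 libraries. Detection was set at 1 TPM in each library, which 31% of all genes and 8 of 8 members reached. The 6 stefin A members summed to 6164 TPM in replicate 1 and 8258 TPM in replicate 2 (7211 ± 1481 TPM, n = 2). That was 0.616% and 0.826% of all TPM, and 0.216% and 0.282% of the estimated counts, the share of TPM being larger because these transcripts are short. With the stefin B and cystatin C genes added, the sum was 6558 TPM in replicate 1 and 8762 TPM in replicate 2. These are levels of a whole tissue, in which fewer cells of a type and less RNA per cell cannot be told apart.

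Stfa1 (chr16:36276951-36285373, plus strand), a cytosolic cathepsin inhibitor, had the highest level of the 8, with 3071 TPM in replicate 1 and 4078 TPM in replicate 2 (3574 ± 712 TPM). It ranked 22 among all genes by mean TPM and 14 among protein-coding genes. Its estimated counts were 30875 in replicate 1 and 38682 in replicate 2. The protein-coding genes nearest to it in level over both libraries were Tmsb4x, which encodes thymosin beta 4 (2815 and 3347 TPM), and Rpl41, a ribosomal protein gene (3539 and 3375 TPM).

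BC100530 (RefSeq symbol Cstdc5; chr16:36359382-36367748, minus strand) came next, with 1525 TPM in replicate 1 and 2093 TPM in replicate 2 (1809 ± 402 TPM), rank 41 of all genes. Its TPM was below that of Stfa1 by a factor of 2.01 in replicate 1 and 1.95 in replicate 2, while its estimated counts, 24922 and 32263, were below by factors of only 1.24 and 1.20. The scales differ because the deposited length of BC100530 is 618 nt and that of Stfa1 418 nt. GENCODE M21 lists a Stfa1 transcript of 617 nt, Stfa1-202, and the tables hold a single Stfa1 transcript of 418 nt. In an alternative chosen after seeing the data, BC100530 was given the effective length of Stfa1. Its level would then be 2479 TPM in replicate 1 and 3401 TPM in replicate 2 (2940 ± 652 TPM). This restates the ratio of counts on the TPM scale and so cannot test the order of the 2 genes. Whether reads of Stfa1 beyond the 418-nt model were lost or assigned to BC100530 was not tested. Stfa1 and BC100530 together made up 74.6% and 74.7% of the TPM of the stefin A members.

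Stfa2 (chr16:36403992-36408457, minus strand) had 576 TPM in replicate 1 and 787 TPM in replicate 2 (681 ± 149 TPM). Its close copy Stfa2l1 (chr16:36156811-36161953, plus strand) had 563 TPM in replicate 1 and 738 TPM in replicate 2 (651 ± 124 TPM). The ranges of the 2 libraries overlap, so by that measure these neighbours in the order did not differ beyond their spread. The ranges do not compare the genes within a library, and Stfa2 was higher in both libraries, by factors of 1.02 and 1.07. The deposited TPM intervals of the 2 genes overlapped in replicate 1 but not in replicate 2 (755 to 790 for Stfa2, 708 to 742 for Stfa2l1). The estimated counts were 5882 and 7581 for Stfa2 and 5592 and 6916 for Stfa2l1. Nearest in level to Stfa2 were Actg1, a cytoplasmic actin gene, and Ifitm2, an interferon-induced membrane protein gene, and nearest to Stfa2l1 were Ifitm2 and B2m, the light chain of MHC class I.

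Stfa3 (chr16:36450537-36455392, minus strand) had 412 TPM in replicate 1 and 544 TPM in replicate 2 (478 ± 92.9 TPM), below Stfa2l1 by factors of 1.37 and 1.36. The nearest genes in level were Eln, which encodes elastin, and Bnip3l, a mitophagy receptor gene of maturing red cells. BC117090 (RefSeq symbol Cstdc6; chr16:36321665-36334332, minus strand) was the lowest of the 8, with 16.9 TPM in replicate 1 and 18.2 TPM in replicate 2 (17.6 ± 0.94 TPM). Its estimated counts, 154 and 156, equalled 0.275% and 0.22% of the counts of Stfa1 and BC100530 combined. Atf7, a transcription factor gene, and Snapc2, a subunit gene of the small nuclear RNA activating protein complex, were nearest to it.

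Cst3 (chr2:148871722-148875692, minus strand), which encodes the secreted cystatin C, had 288 TPM in replicate 1 and 381 TPM in replicate 2 (334 ± 65.7 TPM). It stood below Stfa3 by a factor of 1.43 in TPM in each library. In estimated counts the order was the other way, 6896 and 8594 for Cst3 and 4069 and 5061 for Stfa3, since the Cst3 transcript is 860 nt long and that of Stfa3 412 nt. Cxcl12, a chemokine of spleen stroma, and Igfbp7, a secreted growth factor binding protein gene, were nearest to Cst3 in level.

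Cstb (chr10:78425669-78427622, plus strand), whose protein, stefin B, is found in most cells and whose loss in people causes a progressive myoclonus epilepsy, had 107 TPM in replicate 1 and 124 TPM in replicate 2 (115 ± 12.2 TPM), from 1680 and 1842 counts. The 6 stefin A members together exceeded it by factors of 57.8 in replicate 1 and 66.7 in replicate 2. Pdia6, a protein disulfide isomerase gene, and Ech1, an enzyme gene of fatty acid oxidation, had the nearest levels.

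The order by TPM was therefore Stfa1, BC100530, Stfa2 with Stfa2l1, Stfa3, Cst3, Cstb and BC117090, and it was the same in each library taken alone. Apart from Stfa2 and Stfa2l1, no neighbours had overlapping ranges. The make-up of the stefin A transcripts changed little between the libraries while their sum differed: Stfa1 held 49.8% of it in replicate 1 and 49.4% in replicate 2, BC100530 24.7% and 25.3%, Stfa2 9.34% and 9.53%, Stfa2l1 9.14% and 8.94%, Stfa3 6.69% and 6.58%, and BC117090 0.274% and 0.221%. These shares are of TPM and depend on the deposited lengths. By estimated counts Stfa1 held 43.2% in replicate 1 and 42.7% in replicate 2, and BC100530 34.9% and 35.6%. With Stfa3, whose reads were not divided with any other gene, as the measure, Stfa1 stood 7.45 and 7.5 times as high in TPM in the libraries.

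**Figure D2:**
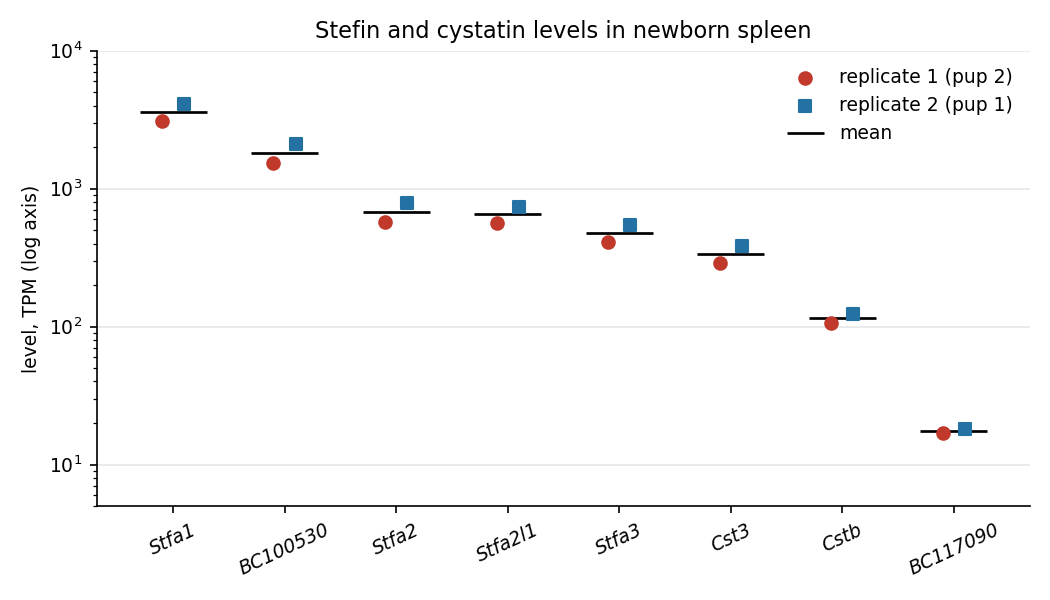
Level of each member in TPM on a log axis, with a point for replicate 1, a square for replicate 2 and a bar for their mean. Stfa1 is highest at 3071 and 4078 TPM and BC117090 lowest at 16.9 and 18.2 TPM, and replicate 2 is the higher library for all 8 on this scale.

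BC100530 and Cst3, the members with several deposited transcripts, were each read almost wholly from a single transcript. BC100530-201 held 98.7% ± 0.0823 of the TPM of BC100530, and Cst3-201 held 99.6% ± 0.149 of that of Cst3. The other 6 members have 1 transcript each in the tables, so their single transcript was set by the models. The remaining transcripts of BC100530, a nonsense-mediated decay form of 17.6 and 27.5 TPM and a retained-intron form of 1.35 and 0.94 TPM, stayed below 10% of the gene.

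The stefin A cluster spans 335 kb of chromosome 16 (chr16:36119946-36455392 on mm10). It holds 14 stefin A genes and pseudogenes of the tables, 10 of them protein-coding, and 9 of those 10 were detected. On the plus strand, in order of coordinate, lie Stfa2l1, Gm5483, Gm5416, 2010005H15Rik and Stfa1, and then on the minus strand BC117090, BC100530, Stfa2 and Stfa3. Stfa1 and its close copies BC100530 and BC117090 thus lie on opposite strands, as do Stfa2l1 and Stfa2, while BC100530 and BC117090 share the minus strand and Gm5483 and 2010005H15Rik the plus strand.

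The protein-coding genes of the cluster outside the 8 are also stefin A genes. Gm5483 (RefSeq Cstdc4) had 1143 TPM in replicate 1 and 1472 TPM in replicate 2, between BC100530 and Stfa2. Its copy 2010005H15Rik (RefSeq Csta2), with 96.9% of the coding sequence identical, had 346 and 415 TPM, and Gm5416 (RefSeq Csta3) had 49 and 57.1 TPM. Csta1 was the protein-coding gene that was not detected, with 0.2 and 0.08 TPM. With these genes and the pseudogenes added, the cluster summed to 7704 TPM in replicate 1 and 10202 TPM in replicate 2, of which the 6 members held 80% and 80.9%. Of the other genes in the interval, the small nuclear RNA gene Gm25465 (21.1 and 22.4 TPM, from 4 counts in each library) and the antisense gene Gm15845 also passed 1 TPM in both libraries. The 4 pseudogenes reached at most 1.02 TPM in replicate 1 and 0.26 TPM in replicate 2.

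**Figure D3:**
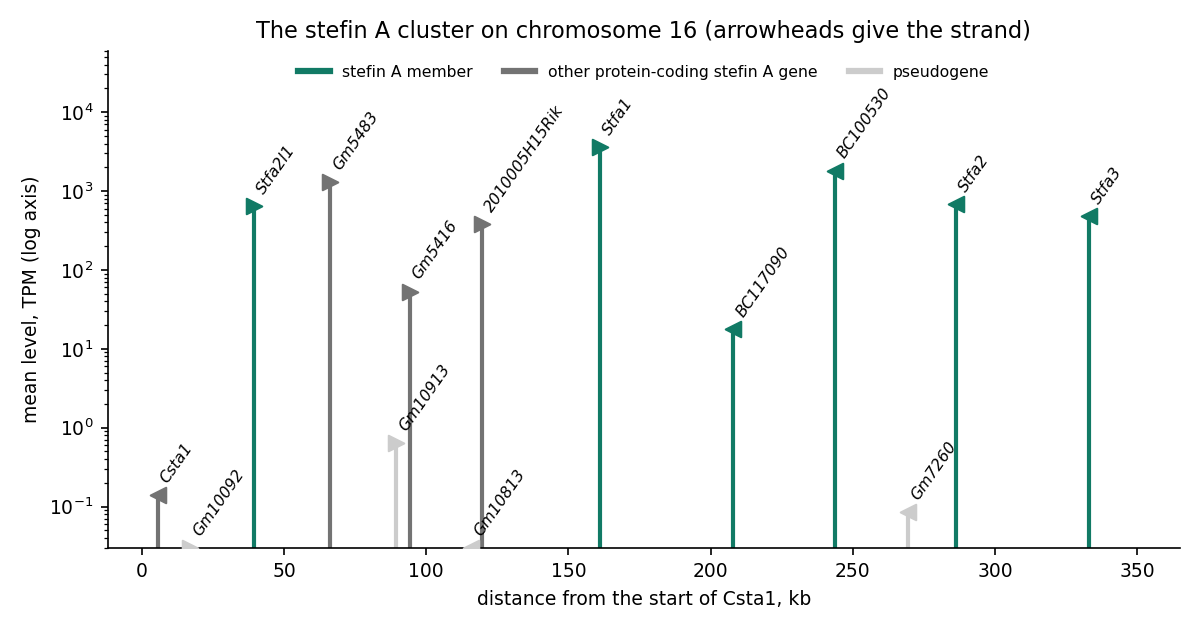
Mean level in TPM (log axis) of the stefin A genes and pseudogenes against their distance from the start of Csta1 in kb, with arrowheads pointing along the strand. High levels stand on both sides of the cluster, the pseudogenes stay near the foot of the axis, where genes listed at 0 are drawn, and BC117090 is low between Stfa1 and BC100530.

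The deposited posterior SD of each count gives the uncertainty from dividing reads that match several genes, with the transcript models taken as given. It does not cover an error in a model, such as one in the length of Stfa1. The posterior SD is 0 where no read was divided. It was 0 in both libraries for Stfa3, Cstb and Cst3, as for 66.2% of the 15506 genes that averaged 20 counts or more. For Stfa1 it was 29.25 reads in replicate 1 and 32.99 in replicate 2, or 0.0947% and 0.0853% of the count. BC100530 had 30.35 and 34.28 reads, or 0.122% and 0.106%. Stfa2 and Stfa2l1 had equal posterior SDs, 1.60 reads in replicate 1 and 1.88 in replicate 2. The same held for Gm5483 and 2010005H15Rik, at 17.40 and 20.34 reads. The least certain count was that of BC117090, at 7.74 and 7.71 reads or 5.04% and 4.93% of the count. Divided by the square root of the count, its posterior SD was 0.62, above that of 93.7% of genes.

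The share of each coding sequence with a near match elsewhere in the family was computed beside these values. Of the 100-nt windows of a coding sequence, the share that lay within 2 mismatches of another family gene was 95.3% for BC100530, 88.5% for Stfa1 and 77.2% for BC117090. It was 69.8% for Gm5483 and for 2010005H15Rik, 43.8% for Stfa2 and for Stfa2l1, and 0% for Stfa3, Cstb and Cst3. Among the detected genes of the family, the 4 with no such window, Gm5416 included, are those with a posterior SD of 0. Among the others the posterior SD did not follow the share: BC100530, with the highest share, had 0.122% and 0.106% of its count, and BC117090, with a lower share and the fewest counts, had 5.04% and 4.93%. For the abundant copies the stated uncertainty was under 1% of the count, well below the difference between the libraries. For BC117090, how many of its counts were reads of BC100530 or Stfa1 was not tested. Gm15845, an antisense gene of 5.78 and 6.1 TPM, overlaps the start of BC100530. No source used here says whether strand entered the counting, so reads from the overlap cannot be told apart.

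**Figure D4:**
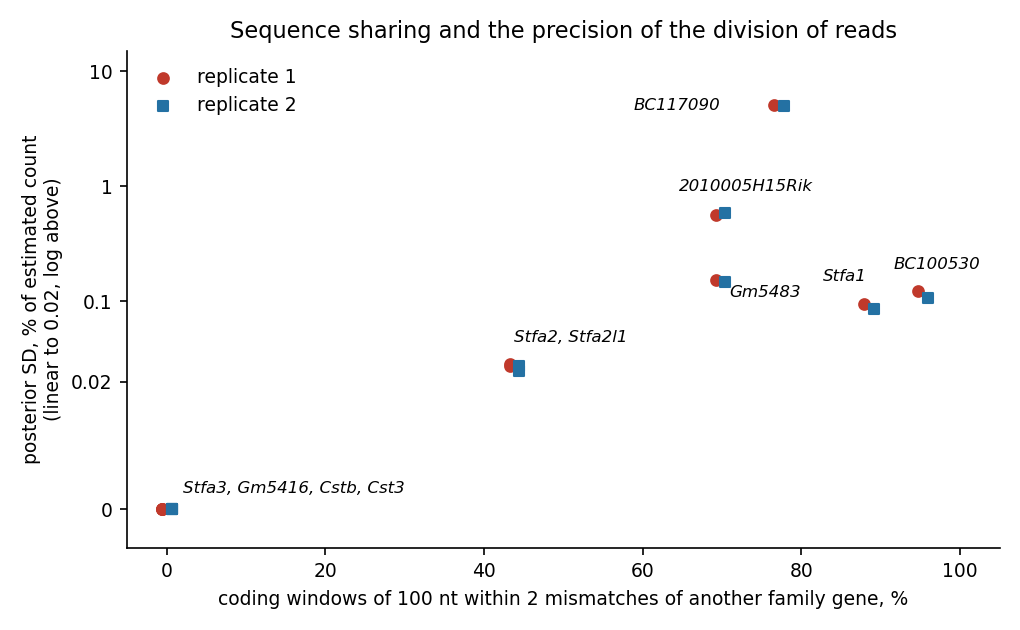
Posterior SD as percent of the estimated count (linear to 0.02, log above) against the share of 100-nt coding windows within 2 mismatches of another family gene, for each library. Genes with no such window sit at 0, Stfa2 and Stfa2l1 follow, and BC117090, with the fewest reads, is highest at 5.04% and 4.93%.

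Promoter windows of RefSeq (GRCm38.p6, 250 nt before to 50 nt after the gene's RefSeq start) were found for 6 of the 8 members, all but BC117090 and Cstb. For Stfa1, BC100530, Stfa2 and Cst3 the GENCODE gene begins upstream of the RefSeq start, inside the window. The windows of Stfa2 and Stfa2l1 were 90.5% identical and those of Stfa1 and BC100530 83.8%, while that of Cst3 was 42.0% identical to the window of Stfa1. The C/EBP motif TTGCNNAA, of a factor family of granulocyte genes, was in 2 of 6 member windows, Stfa1 and BC100530, and in 10.8% of all 32851 windows. The core GAGGAA of PU.1, a factor of myeloid cells, was in 6 of 6 and in 28.3% of all windows. It was also in the windows of Gm5483 and of Csta1, which was not detected, but not in those of the detected Gm5416 and 2010005H15Rik. The C/EBP motif was also in the window of Gm5416, but not in those of Gm5483, 2010005H15Rik and Csta1. The windows of the stefin A members are alike, so their matches are not independent of each other. The letters TATAAA were in 0 of 6 and in 13.6% of all windows. Both strands were searched, and the 3 motifs were counted separately. The C/EBP matches of Stfa1 and BC100530, and the PU.1 matches of Stfa1 and Stfa2, lie inside the GENCODE gene and not before it.

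The longest run of bases common to the last 100 nt before the start of the 5 stefin A members with a window was ACCTTTAAAACC. The run was found after the sequences had been seen, and in Stfa1, BC100530 and Stfa2 it lies inside the GENCODE gene. Searched for in the last 100 nt before each start only, it was in 10 of 32851 windows (0.0304%), 9 of them on chromosome 16. Of these 10, 5 are the members it was derived from, so the share is no independent measure. The others are Cstdc3, Cstdc4 (Gm5483), Csta3 (Gm5416), the pseudogene Gm7260, which was not detected, and Gm39539, so the run is not particular to the members. Shown here are the 100 nt before the start of the 2 members whose start is the same in GENCODE and RefSeq, Stfa2l1 (chr16:36156711-36156810, plus strand) and Stfa3 (chr16:36455393-36455492, minus strand), 5′ to 3′ with the shared run in capitals.
Stfa2l1: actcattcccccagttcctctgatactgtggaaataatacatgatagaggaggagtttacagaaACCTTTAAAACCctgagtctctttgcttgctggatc
Stfa3: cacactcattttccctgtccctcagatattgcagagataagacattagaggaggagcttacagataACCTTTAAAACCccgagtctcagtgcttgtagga
A match is a description of the letters and not of a site in use.

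Between the pups the members differed little. For each gene the log2 ratio of replicate 1 over replicate 2 was computed from the estimated counts after TMM scaling, and a gene was called at 1.5-fold or more. With 1 library on each side the ratio has no replicate check. Of the 8 members 0 were called in either direction, beside 2.54% of 15506 genes higher in replicate 1 and 4.57% higher in replicate 2, and among 8 genes a count of 0 is near that background. Stfa1 had a log2 ratio of -0.27, BC100530 of -0.32, Stfa2 of -0.31, Stfa2l1 of -0.25, Stfa3 of -0.26 and Cst3 of -0.26. These 6 lay close together, with replicate 2 higher by 1.19 to 1.24 times, and their 95% Clopper-Pearson intervals, which cover counting error only, leave out equal levels. Cstb, at -0.08, and BC117090, at 0.04, had intervals that include equal levels (ratio 0.888 to 1.01 and 0.817 to 1.29). In all, 7 of 8 were below 0, with a median of -0.26, beside 51.1% of all genes and a median of -0.01. Scaled by the library total, or taken from the deposited TPM, 8 of 8 were below 0, BC117090 included.

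The libraries also differed in marker lists. The 12 late neutrophil markers, all detected, summed to 14284 TPM in replicate 1 and 20342 TPM in replicate 2, with 12 of 12 log2 ratios below 0 and a median of -0.38. S100a8, a subunit of the neutrophil protein calprotectin, had 7291 and 10505 TPM and its partner S100a9 3838 and 5515 TPM. The 4 early granule markers, led by Mpo (348 and 477 TPM) and Elane (203 and 272 TPM), had a median of -0.30. The 6 stefin A members summed to 43.2% of the late neutrophil markers' TPM in replicate 1 and 40.6% in replicate 2. Stfa1 stood at 42.1% and 38.8% of the TPM of S100a8. The part of neutrophil number in the stefin ratios was not tested.

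Other cell types moved too. The 9 macrophage markers, led by the iron exporter gene Slc40a1 (313 and 448 TPM) and the complement gene C1qb (84.7 and 135 TPM), summed to 617 TPM in replicate 1 and 907 TPM in replicate 2 (9 of 9 below 0, median -0.52). The 5 mast cell markers, led by the protease genes Tpsb2 and Cma1, summed to 807 and 1825 TPM, and 4 of 5, all but Kit, were called higher in replicate 2. The 5 pancreas markers, led by the digestive enzyme genes Ctrb1 and Cela2a, summed to 625 and 224 TPM, and 5 of 5 were called higher in replicate 1, as were Apoa1, Ahsg and Alb, the 3 liver markers tested (median 1.32). The 5 erythroid markers, led by Hba-a1 and Alas2, had a median of 0.34. Their part in the stefin ratios was not tested either.

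Stefin A is also known from stratified epithelium such as skin. Of 7 squamous epithelium markers 2 were detected, Krt14 (8.82 and 6.39 TPM) and Krt10 (2.07 and 2.63 TPM), and the list summed to 11.9 TPM in replicate 1 and 9.99 TPM in replicate 2. Krt5, the partner keratin of Krt14, had 0.09 and 0.05 TPM. Of the 6 dendritic cell markers, led by Zbtb46 (10.7 and 12.4 TPM) and Flt3 (2.64 and 3.91 TPM), 3, Itgax being the other, were detected, and the list summed to 16.9 and 19.2 TPM. The 5 spleen stroma markers, led by Cxcl12 (287 and 408 TPM) and Tcf21 (114 and 135 TPM), were all detected, with 458 and 625 TPM.

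**Figure D5:**
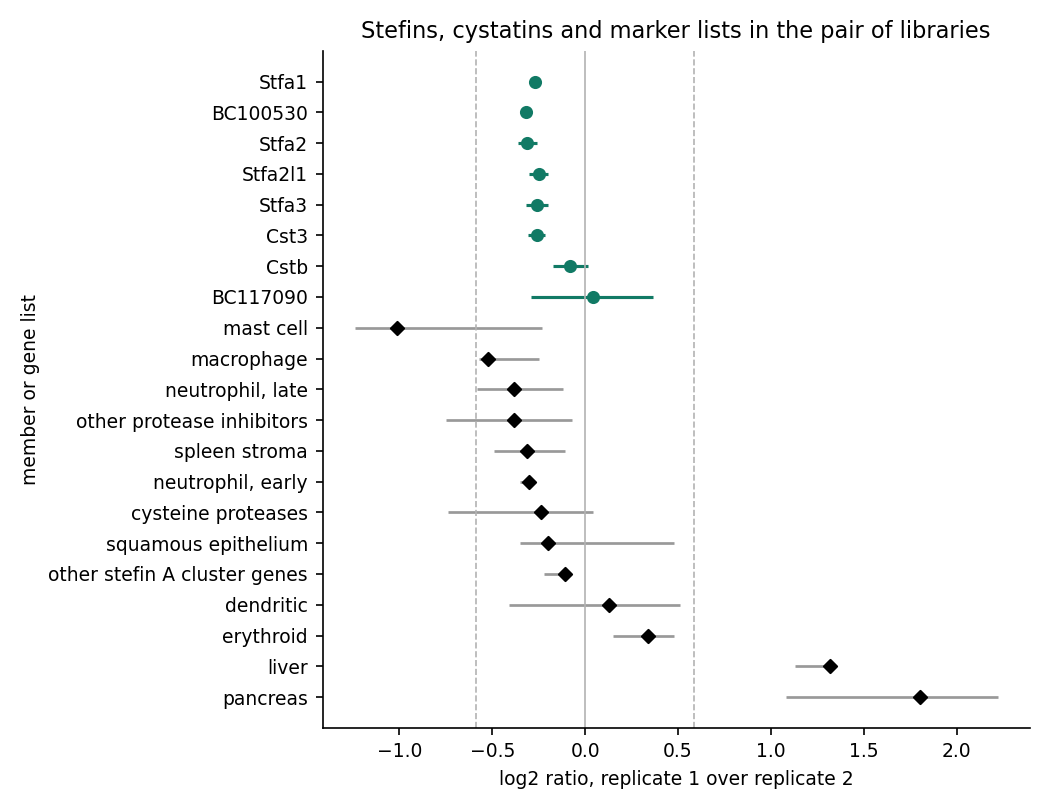
Log2 ratio of replicate 1 over replicate 2 for the 8 members (points with 95% counting intervals) and for gene lists (diamonds at the median, lines over the range of the tested genes), with dashed lines at 1.5-fold and Anxa1 among the other protease inhibitors. All members lie between the dashed lines, the late neutrophil median is -0.38, and the pancreas median, 1.80, is farthest right.

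Cysteine proteases, the class that holds the targets of the inhibitors, were measured as well. All 11 cysteine proteases of the list were detected, summing to 531 TPM in replicate 1 and 668 TPM in replicate 2. Ctsb, which encodes cathepsin B, was highest (162 and 174 TPM), then Ctsz, the gene of cathepsin Z (79 and 111 TPM). The list also holds Lgmn, the gene of legumain (62.1 and 86.2 TPM), which is not a papain-like protease. The protease sum is therefore not a sum of stefin targets alone. The stefin A sum exceeded the protease sum by factors of 11.6 in replicate 1 and 12.4 in replicate 2, whereas Cst3 had 0.541 and 0.57 of it and Cstb 0.201 and 0.186. Of the 11 proteases 10 had log2 ratios below 0 (median -0.24), and 1, the cathepsin W gene Ctsw (2.66 and 4.96 TPM), was called higher in replicate 2. These are ratios of transcripts, and protein was not measured.

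Members of the other cystatin classes, the type 2 cystatins beside Cst3 and the kininogens and fetuins, were lower than the stefin A sum. Of 10 other type 2 cystatins only Cst7, the leukocyte cystatin F, was detected, with 13.6 and 19.3 TPM, then came Cst9 with 0.27 and 0.63 TPM, and Cst10, Cst11, Cst12, Cst13 and Cstl1 had no read, which allows up to 3 counts in each library. Of 5 kininogen and fetuin genes, plasma proteins made by liver, Ahsg had 8.35 and 3.57 TPM and Kng1 2.14 and 0.76 TPM. A list of 8 other genes, 7 protease inhibitors known from neutrophils and Anxa1, was detected in full, with 748 TPM in replicate 1 and 1040 TPM in replicate 2, below the stefin A sum in each library. The highest were Slpi, the secretory leukocyte protease inhibitor gene (218 and 255 TPM), and Anxa1, the gene of the phospholipid-binding protein annexin A1, which is not a protease inhibitor (187 and 277 TPM). Their log2 ratios were below 0 in 8 of 8 (median -0.38).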

How the data were processed

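Per the labels, total RNA of 2 spleens was sequenced on day 0, and per the labels' protocols the spike-in RNAs were added by the authors. The authors deposited a gene and a transcript table per library on mm10 with GENCODE M4 models, as the text listings beside the tables say, in the column layout of RSEM. No source used here gives the aligner or versions. Expected counts, as deposited, are estimated counts with shared reads divided among genes. TPM, as deposited, covers all features of a table, and the effective length is the length minus 99 nt. The deposited posterior SDs are in reads.

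Names and coordinates came from GENCODE M21 (GRCm38) by Ensembl identifier. Rounded estimated counts entered edgeR 4.0.16 (R 4.3.3) for TMM scaling, with a prior count of 2, for genes that averaged 20 counts or more. No p-value was computed, since there is 1 group of 2. Both pups share a donor identifier in the labels, while separate pups are named, and they were treated as separate animals. Coding sequences were aligned with Biopython 1.88. For Stfa1 the M21 transcript Stfa1-202 was used. In simulated counts over 15506 genes, genes changed 2-fold had a median log2 ratio of 0.979 or -0.981, and 3.1% of unchanged genes passed 1.5-fold. The spread of the simulated counts was a set value and was not estimated from these libraries. The 3.1% is therefore no rate of false calls for this pair.

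The members and lists were chosen with earlier results of these data known. The named genes are every member, detected cluster genes, the 2 highest genes of each list, the 2 protein-coding genes nearest to each member in log2(TPM + 1) over both libraries, and transcripts of at least 10% of a member. Csta1, Gm15845, Ctsw, Lgmn, Kit, Krt5, Itgax, Alb, the cystatins with no read and the minor BC100530 transcripts were named after their values were seen. Alternatives were posterior mean TPM, rescaled TPM, other thresholds, filters and scalings (DESeq2 1.42.0 size factors, library total, spike-ins), and each library alone.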

Additional observations from a re-analysis of the deposited data

How the results depend on the processing

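No paired analysis was possible because the labels give 1 group of 2 libraries. Of 271 alternative values, 40 for single genes or lists and 10 for the sums, counts and medians of the members and of all genes moved by more than the spread or beyond 1.5 times. Where the allowed spread was the SD of the 2 libraries, leaving out a library could not count as moved. Its shift never exceeds that SD, so those values are no evidence of stability. Leaving out each library in turn gave 6164 to 8258 TPM for the 6 stefin A members, 6558 to 8762 TPM for all 8, and 8 detected members and 7 ordered neighbour pairs each time. By estimated counts 6 of 7 neighbour pairs kept their order. With every stefin A gene and pseudogene of the cluster, the mean sum was 8953 TPM. The median log2 ratio of the 8 members, and of the 6 stefin A members, was -0.36 by library total and -0.21 by spike-ins, which held only 694 and 748 counts. Library totals moved the median of all genes by -0.10 and deposited TPM by -0.13. Of all genes, 394 were called higher in replicate 1 and 709 in replicate 2. Without a filter these were 2994 and 2757, at a mean count of at least 100 they were 119 and 221, and by library total the second was 1075. The members called numbered 0 in each direction under all of these settings. Fewer genes enter at the higher filter. The cause of the other shifts was not tested. Depth limits BC117090, with 154 and 156 counts.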
